A study of Arabidopsis thaliana with 16 samples.

Results

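The question here is whether roots react differently to low oxygen when HRE1 is targeted by RNA interference. For each probe set the hypoxia response of a line, meaning hypoxia minus normoxia on the log2 scale, was taken in HRE1-RNAi and in wild type. The wild type response was then subtracted from the HRE1-RNAi response. A positive difference therefore means a larger rise, or a smaller fall, in HRE1-RNAi. All 16 of the 16 arrays of the series entered, and 22746 probe sets were tested.

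The arrays hold RNA from roots of 14-d-old Arabidopsis thaliana seedlings of the Columbia background, in 4 groups of 4 arrays labelled biological replicates. The groups were HRE1-RNAi under hypoxia, HRE1-RNAi under normoxia, wild type under hypoxia and wild type under normoxia. Hypoxia was 6 h at 3% oxygen, normoxia lasted equally long, and in both conditions the seedlings stayed in the dark. Sample titles name the transgenic line HRE1-RNAi20 but most of its descriptions name other RNAi numbers, so it was not settled whether 1 RNAi line or more is represented. The promoter that drives the RNAi construct is not given in the sources used here. No probe set is paired with HRE1 in the annotation used, so the knock-down itself was not analysed here.

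HRE1, also called AtERF73, encodes an ethylene response factor of group VII, a small family of transcription factors. Some members of this family are degraded when oxygen is present and become stable when it is short, and HRE1 is itself known as a gene induced by hypoxia in roots. When respiration is limited, roots switch on genes of fermentation and sugar breakdown, together with a core of further genes, and low oxygen is also known to raise heat shock and defence transcripts.

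Values are deposited intensities on a common array scale, with a median of 166.3 to 191.1 in HRE1-RNAi hypoxia, 179.95 to 206.5 in HRE1-RNAi normoxia, 168.85 to 178.05 in wild type hypoxia and 179.9 to 193.6 in wild type normoxia. Both HRE1-RNAi arrays numbered 4 stood apart. Their log2 difference between 3′ and 5′ control probe sets, a sign of RNA quality, was 1.35 in hypoxia and 1.32 in normoxia, while no other array exceeded 1.20. The 25S rRNA signal was 1775.5 in the HRE1-RNAi hypoxia array 4 and 14443 to 20696 in the other 3 of that group. The HRE1-RNAi normoxia array 4 had the lowest 25S signal of all 16, at 273. In the other 7 hypoxia arrays of both lines the 25S signal was 13791 to 20696, and in the normoxia arrays it was 273 to 4253, so it also moved with the treatment. Its part in the results was not tested. For several results in which HRE1-RNAi array 4 holds an extreme value, though not for all, the value without both arrays 4 is given too. Shoot markers, of which 2 of 19 listed were measured, summed to 983.5 to 1429 in HRE1-RNAi hypoxia, 1728 to 1911 in HRE1-RNAi normoxia, 1021 to 1104 in wild type hypoxia and 1717.5 to 1990.0 in wild type normoxia. The 5 measured root markers of 14 listed summed to 3559 to 6007, 4706 to 6991, 2865 to 3815 and 4831 to 5978 in the same order of groups. None of the 7 was at 0 as a group mean, and their part in the results was not tested. In RNA from whole roots, fewer cells of a type and less RNA per cell cannot be told apart.

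The hypoxia response itself was broad in both lines. Averaged over the lines it was called, at a limma adjusted p below 0.05, for 6399 probe sets (28.1%), of which 2495 rose (11%) and 3904 fell (17.2%). Rises made up 39.0% of these calls as deposited, and 54.3% once array medians had been set equal. Against this, 4 probe sets (0.0176%) were called in the difference between the lines, all 4 above 0. At an unadjusted p below 0.05 the difference passed for 770 probe sets (3.39%), fewer than the 1137 that make up 5% of those tested. Without HRE1-RNAi hypoxia array 4 the number was 1198, and with array weights 1293, both above 1137.

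The first of the 4, AT3G16530 (probe set 257206_at), was the one called probe set with a single annotated gene, and it encodes a legume-type lectin-like protein. Its intensity was 3253, 3992, 3829 and 2563 in HRE1-RNAi hypoxia, against 249, 269, 275 and 272 in HRE1-RNAi normoxia. Wild type read 2205, 2041, 2603 and 1486 in hypoxia, against 518, 423, 405 and 409 in normoxia. The lines overlapped in hypoxia but not in normoxia, where every HRE1-RNAi array was lower. The transcript rose by 3.58 ± 0.16 log2 in HRE1-RNAi and by 2.19 ± 0.16 in wild type (SE, n = 4 arrays per group). The difference of 1.40 ± 0.23 had a 95% interval of 0.93 to 1.87 and an adjusted p of 0.022 from limma, and without both arrays 4 it was 1.54 (adjusted p = 0.0034). The line contrast was not called in either condition taken alone, at 0.71 in hypoxia (adjusted p = 0.43) and -0.68 in normoxia (adjusted p = 0.34).

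The other 3 calls fell on probe sets that no single gene is paired with in the annotation used here. Probe set 262119_s_at read 16819, 14873, 14881 and 17197 in HRE1-RNAi hypoxia, against 3731, 4209, 3628 and 3628 in HRE1-RNAi normoxia. Wild type gave 14589, 14316, 15949 and 14303 in hypoxia, against 7581, 6547, 7305 and 8687 in normoxia. The lines thus reached overlapping levels in hypoxia and did not overlap in normoxia, where HRE1-RNAi lay lower. Its rise was 2.06 ± 0.10 log2 in HRE1-RNAi and 0.98 ± 0.10 in wild type, a difference of 1.09 ± 0.15 (adjusted p = 0.0060). Without both HRE1-RNAi arrays 4 the difference was 1.03 (limma adjusted p = 0.0034). In normoxia alone HRE1-RNAi minus wild type was -0.98 (adjusted p = 5.3e-05), 1 of 6 probe sets called in that contrast (0.0264%).

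Probe set 251677_at showed the same arrangement at a lower intensity. It read 968, 1202, 1269 and 1229.5 in HRE1-RNAi hypoxia, against 475, 559, 439 and 558 in HRE1-RNAi normoxia. Wild type had 1221, 1106, 1038 and 964 in hypoxia, against 990.4, 958, 1064 and 1110.3 in normoxia. Only the HRE1-RNAi normoxia arrays stood off from the other 12. The response was 1.17 ± 0.13 log2 in HRE1-RNAi, a called rise, and 0.07 ± 0.13 in wild type (adjusted p = 0.81), with a difference of 1.11 ± 0.18 (adjusted p = 0.022). In normoxia HRE1-RNAi minus wild type was -1.0 (adjusted p = 0.00062).

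Probe set 252827_at was the one call in which a fall was smaller in HRE1-RNAi. Its values were 1583, 1876, 2160.1 and 2627 in HRE1-RNAi hypoxia, against 2338, 3037, 2635 and 2347 in HRE1-RNAi normoxia. Wild type ran at 1169.5, 1128, 1141 and 1159.9 in hypoxia, against 3362, 3522, 3745 and 3578 in normoxia. The lines did not overlap in either condition: HRE1-RNAi was higher in hypoxia and lower in normoxia. The HRE1-RNAi response of -0.34 ± 0.13 log2 was not called (adjusted p = 0.086), and in wild type the transcript fell by 1.61 ± 0.13. The difference was 1.27 ± 0.19 (adjusted p = 0.013), and 1.10 without both HRE1-RNAi arrays 4 (limma adjusted p = 0.0074). In hypoxia HRE1-RNAi minus wild type was 0.81 (adjusted p = 0.029), 1 of 5 probe sets called there (0.022%).

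These calls did not all survive the loss of single arrays. Leaving out each of the 16 arrays in turn, 262119_s_at stayed called in all 16 fits. Probe set 252827_at stayed called in 13, with adjusted p from 0.062 to 0.067 without wild type normoxia array 3, HRE1-RNAi normoxia array 1 or HRE1-RNAi hypoxia array 3. AT3G16530 stayed called in 7 fits and 251677_at in 6, with adjusted p up to 0.10. For AT3G16530 the 9 arrays whose loss ended the call were all 4 of wild type normoxia, HRE1-RNAi normoxia array 1, wild type hypoxia array 2 and HRE1-RNAi hypoxia arrays 1, 2 and 3. For 251677_at the 10 arrays were all 4 of wild type normoxia, HRE1-RNAi normoxia array 1, wild type hypoxia arrays 2, 3 and 4, and HRE1-RNAi hypoxia arrays 2 and 3. The difference kept its sign in every one of these fits, and lay between 1.24 and 1.53 for AT3G16530 and between 1.04 and 1.19 for 251677_at.

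**Figure D1:**
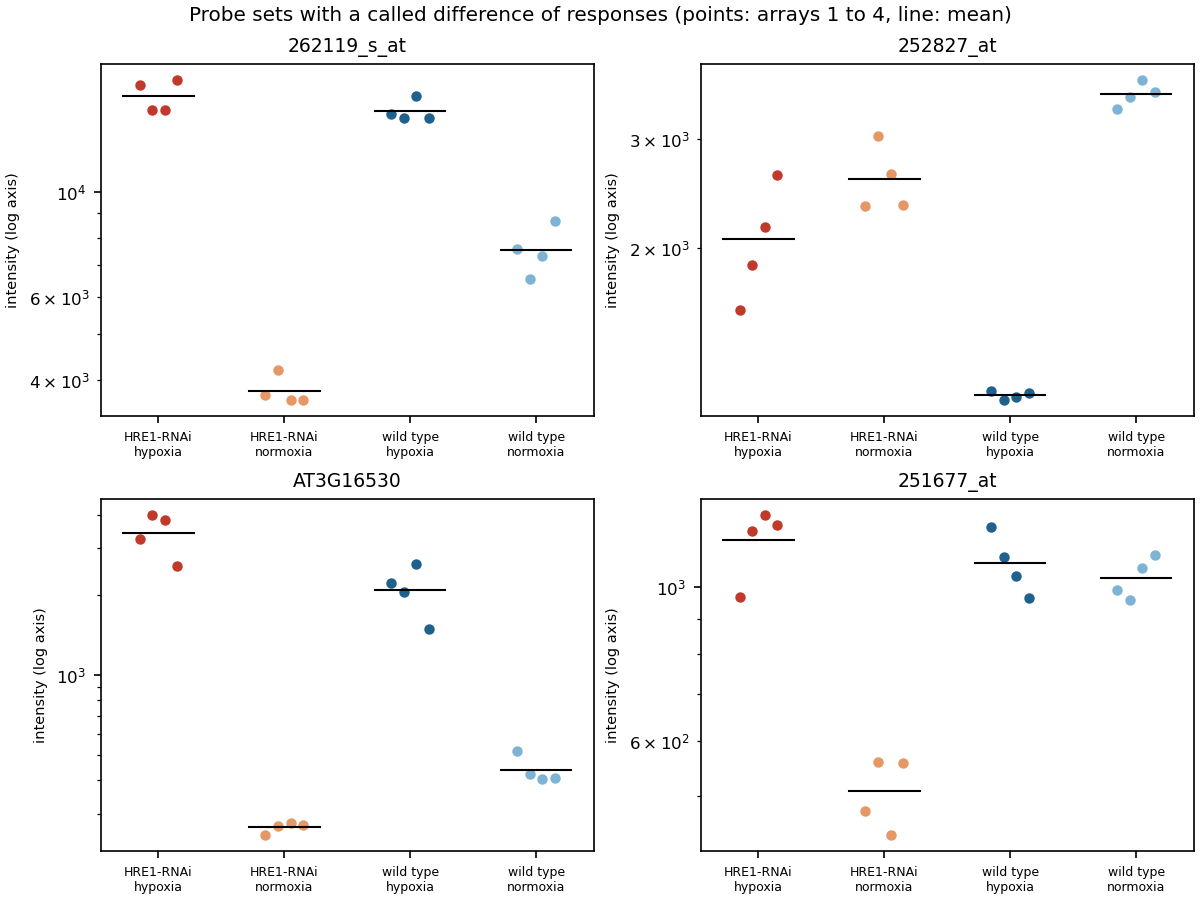
Intensity (log axis) of the 4 probe sets with a called difference of responses, with 1 point per array, numbered 1 to 4 from left to right within each group, and a line at the group mean. In AT3G16530, 262119_s_at and 251677_at the HRE1-RNAi normoxia arrays lie below all wild type normoxia arrays, and in 252827_at the HRE1-RNAi hypoxia arrays lie above all wild type hypoxia arrays.

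At an unadjusted p below 0.01 the difference passed for 165 probe sets (0.725%), with 105 above 0 (0.462%) and 60 below, where 1% of those tested is 227. The split depended on the HRE1-RNAi arrays numbered 4: it was 129 above and 109 below without the hypoxia array 4, and 117 above and 88 below without both. Among the 165, the average response was a called rise for 62, of which 53 rose more and 9 rose less in HRE1-RNAi by point estimate. It was a called fall for 31, of which 21 fell more and 10 fell less, and no average response was called for 72. A group mean below the pseudocount of 16 occurred in 59 of the 165. Over all 2495 called average rises the median difference was 0.02 log2 with 53.1% above 0, and over all 3904 called falls it was -0.01 with 48.6% above 0, beside -0.0041 and 49.3% over all 22746. For average rises of at least 2-fold, 830 in number, the median difference was 0.08 with 59.0% above 0. For average falls of at least 2-fold, 804 in number, it was -0.04 with 44.4% above 0. Among the 11373 probe sets brighter than the median, 10353 (91.0%) had a 95% interval of the difference that lay within 2-fold either way.

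**Figure D2:**
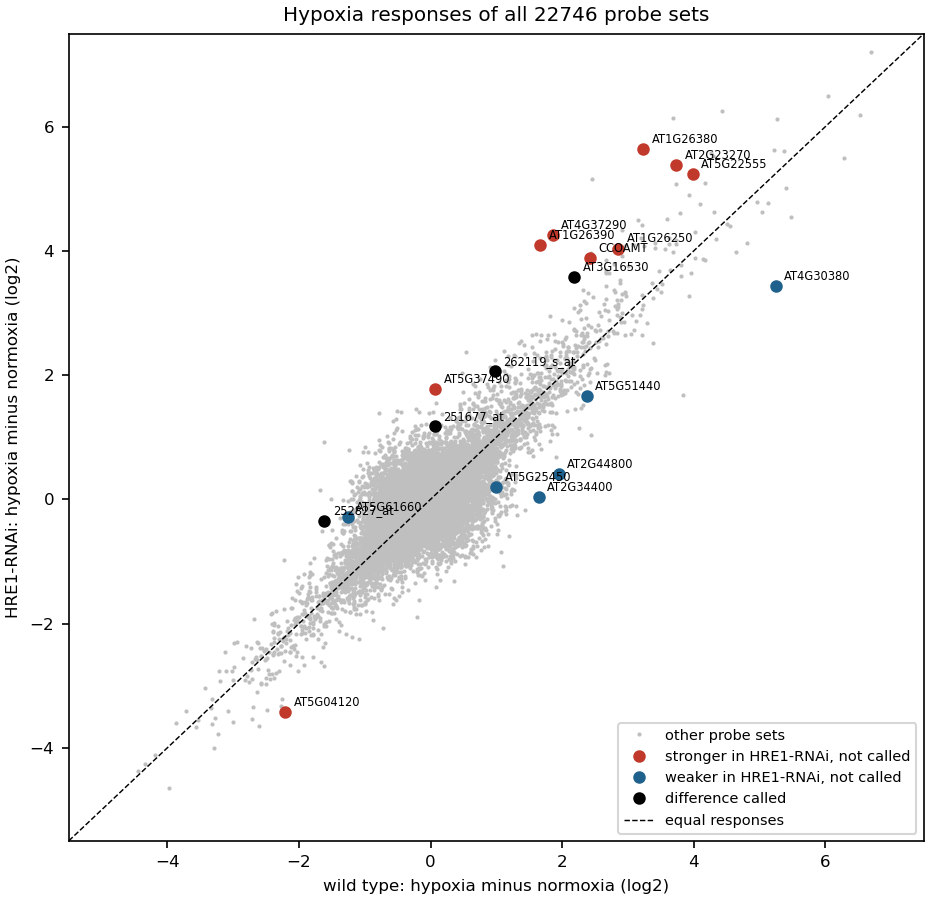
Hypoxia response (log2) of every probe set in HRE1-RNAi (vertical axis) against wild type (horizontal axis), with the 4 called differences in black, the other named stronger responses in red and the named weaker responses in blue. Most points follow the dashed line of equal responses, and AT1G26380, AT1G26390 and AT4G37290 lie farthest above it among the named genes, each about 2.4 log2 from it in height.

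Genes with 1 annotated gene, an unadjusted p below 0.01, a called average response and a group mean of at least 100 numbered 28 with a larger and 6 with a smaller response in HRE1-RNAi. Of the 28, 23 were rises and 5 were falls, and of the 6, 5 were rises and 1 was a fall. Apart from AT3G16530, none of these 34 had a called difference, so their values describe these arrays. They were chosen on the same contrast, and nothing is read from their number or sign.

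With the pseudocount of 16, the largest differences among these 34 were in a pair of genes for berberine bridge enzyme-like oxidases. Probe sets outside the rule reached more, such as 267565_at with 2.69, picked after its value was seen. AT1G26380, whose product acts in making a defence compound from tryptophan, read 1493, 1428, 1738 and 3084 in HRE1-RNAi hypoxia, against 24.2, 13.7, 69.9 and 2.4 in HRE1-RNAi normoxia. In wild type it read 907, 517, 817 and 398 in hypoxia, against 61.2, 41.6, 63.4 and 45.5 in normoxia. Every HRE1-RNAi hypoxia array was above every wild type hypoxia array, while the normoxia groups overlapped. The rise was 5.65 ± 0.36 log2 in HRE1-RNAi and 3.23 ± 0.36 in wild type, and the difference was 2.41 ± 0.52 (adjusted p = 0.25). Without HRE1-RNAi normoxia array 3 it was 2.82 and called (adjusted p = 0.0058, up to 0.59 over single arrays left out), and without both arrays 4 it was 1.83 (adjusted p = 0.25). AT1G26390, its direct neighbour in the gene order of TAIR10.1, read 601, 448, 685 and 1186 in HRE1-RNAi hypoxia, against 41.5, 19.9, 42.0 and 7.7 in HRE1-RNAi normoxia. Wild type had 252, 152, 271 and 61.2 in hypoxia, against 31.7, 23.2, 55.4 and 57.6 in normoxia. Here too the hypoxia groups did not overlap and the normoxia groups did. Its difference was 2.43 ± 0.54 (adjusted p = 0.28), or 1.90 without both arrays 4. In both genes the highest value of all 16 arrays was in HRE1-RNAi hypoxia array 4. Cross-hybridisation between such close paralogues was not examined here.

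AT4G37290 and AT2G23270 encode small secreted peptide precursors of the PIP family, which is known from immune signalling. AT4G37290 read 311, 229.8, 379.9 and 1039 in HRE1-RNAi hypoxia, against 6.7, 6.0, 7.5 and 5.2 in HRE1-RNAi normoxia. Wild type gave 383, 148, 335 and 124 in hypoxia, against 56.8, 29.7, 43.3 and 78.9 in normoxia. The hypoxia groups overlapped, whereas all HRE1-RNAi normoxia values were below the pseudocount and below every wild type normoxia value. The difference was 2.40 ± 0.53 (adjusted p = 0.25) with the pseudocount of 16, 1.94 without both arrays 4, and 3.67 (adjusted p = 0.028), a call, with a pseudocount of 1. Over the other settings its adjusted p ran up to 1.0. AT2G23270 rose by 5.39 log2 in HRE1-RNAi and by 3.73 in wild type, with a difference of 1.65 ± 0.51 (adjusted p = 1.0), and its highest value of 3193 was again in HRE1-RNAi hypoxia array 4. Without both arrays 4 the difference was 1.34.

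AT1G26250, an extensin-like gene whose family builds cell wall structure, read 2287, 2129, 3188 and 3438 in HRE1-RNAi hypoxia, against 149, 113, 159 and 184 in HRE1-RNAi normoxia. Wild type read 2215, 1913, 2069 and 1433 in hypoxia, against 362, 246, 196 and 209.6 in normoxia. The lines were apart in normoxia, with HRE1-RNAi lower, and overlapped in hypoxia. The difference was 1.18 ± 0.28 (adjusted p = 0.34), and 1.16 without both arrays 4.

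Of the remaining named stronger responses, AT5G37490 encodes PUB21, a U-box ubiquitin ligase. It averaged 105 ± 28.4 in HRE1-RNAi hypoxia and 20.2 ± 14.0 in HRE1-RNAi normoxia, and in wild type 63.4 ± 11.8 in hypoxia and 62.8 ± 29.3 in normoxia (SD, n = 4 each). It rose by 1.78 log2 in HRE1-RNAi, while the wild type response was 0.07 (adjusted p = 0.92), and the difference was 1.71 ± 0.43 (adjusted p = 0.54), or 1.51 without both arrays 4. CCOAMT, a caffeoyl-CoA methyltransferase gene of phenylpropanoid metabolism, rose by 3.88 in HRE1-RNAi and by 2.42 in wild type. Its difference of 1.47 ± 0.51 was 0.99 without both arrays 4, and its highest value, 2122, was in HRE1-RNAi hypoxia array 4. AT5G22555, listed among genes that respond to microbial patterns, averaged 2391 ± 810 in HRE1-RNAi hypoxia and 49.6 ± 29.1 in HRE1-RNAi normoxia. In wild type it averaged 2033 ± 568 in hypoxia and 111 ± 17.4 in normoxia, and the difference was 1.25 ± 0.36 (adjusted p = 0.88), or 1.31 without both arrays 4. Among the HRE1-RNAi arrays, array 4 held its highest value in each condition, 3594 in hypoxia and 90.8 in normoxia. Wild type read 112.8, 86.9, 113.8 and 128.9 in normoxia. AT5G04120, as the annotation names probe set 245689_at in a pairing that was not checked against sequence, was the one named fall: 39.1 ± 16.5 in HRE1-RNAi hypoxia and 591 ± 256 in HRE1-RNAi normoxia, and in wild type 45.6 ± 23.8 in hypoxia and 253 ± 27.4 in normoxia. It fell by 3.43 log2 in HRE1-RNAi and fell by 2.21 in wild type, with a difference of -1.22 ± 0.42 (adjusted p = 1.0).

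The other 18 stronger responses had differences between 0.56 and 1.15 in size. Some of them, picked after their values were seen, are annotated to cell wall or defence functions. They are the chitinase gene CHI (AT2G43570, 1.15 ± 0.31) and the chitinase-family gene AT2G43620 (1.04 ± 0.34), which lie 5 genes apart in TAIR10.1, the extensin-type gene AT3G22800 (0.93 ± 0.29), and the proteinase inhibitor gene AT2G38870 (0.92 ± 0.20), next to YLS5 (0.75 ± 0.20). AT2G38870 read 9067, 8427, 9833 and 11637 in HRE1-RNAi hypoxia, against 1006, 784, 992 and 1063 in HRE1-RNAi normoxia. Wild type read 8148, 8159.9, 8625 and 6920.4 in hypoxia, against 1263, 1312, 1738 and 1714 in normoxia. The lines overlapped in hypoxia only, and the adjusted p of the difference was 0.23.

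Among the 6 smaller responses, AT5G51440, which encodes a mitochondrial small heat shock protein, read 633, 469.5, 440.1 and 521 in HRE1-RNAi hypoxia, against 138, 151, 142 and 171 in HRE1-RNAi normoxia. Wild type read 494, 625, 644 and 821 in hypoxia, against 96.2, 124, 124 and 97.5 in normoxia. HRE1-RNAi was higher than wild type in every normoxia array, and the hypoxia groups overlapped. The rise was 1.67 ± 0.16 log2 in HRE1-RNAi and 2.38 ± 0.16 in wild type, a difference of -0.71 ± 0.23 (adjusted p = 1.0). AT4G30380, a gene distantly related to the expansins, read 446, 256, 343 and 432 in HRE1-RNAi hypoxia, against 24.8, 1.8, 38.7 and 21.1 in HRE1-RNAi normoxia. In wild type it read 839.7, 512, 1665 and 593 in hypoxia, against 3.3, 12.9, 5.5 and 2.2 in normoxia. Every HRE1-RNAi hypoxia array was below every wild type hypoxia array, and the wild type normoxia mean was below the pseudocount. The difference was -1.82 ± 0.47 (adjusted p = 0.64).

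The remaining 4 had no called response in HRE1-RNAi and a called one in wild type. AT5G25450, a gene for a subunit of respiratory complex III, had a response of 0.20 (adjusted p = 0.51) in HRE1-RNAi and rose by 1.00 in wild type. Its HRE1-RNAi normoxia array 4 read 606, against 321 to 346 in the other 3 arrays, and the difference of -0.80 ± 0.24 was -0.64 without both arrays 4. AT2G34400, a pentatricopeptide repeat gene, had 0.03 in HRE1-RNAi and rose by 1.64 in wild type. AT2G44800, an oxygenase gene, had 0.40 in HRE1-RNAi and rose by 1.95 in wild type. These last 2 were dim, with no group mean above 118.5. AT5G61660, a glycine-rich protein gene, had -0.28 in HRE1-RNAi and fell by 1.26 in wild type, where hypoxia array 4 read 103, against 218 to 234 in the other 3 arrays.

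**Figure D3:**
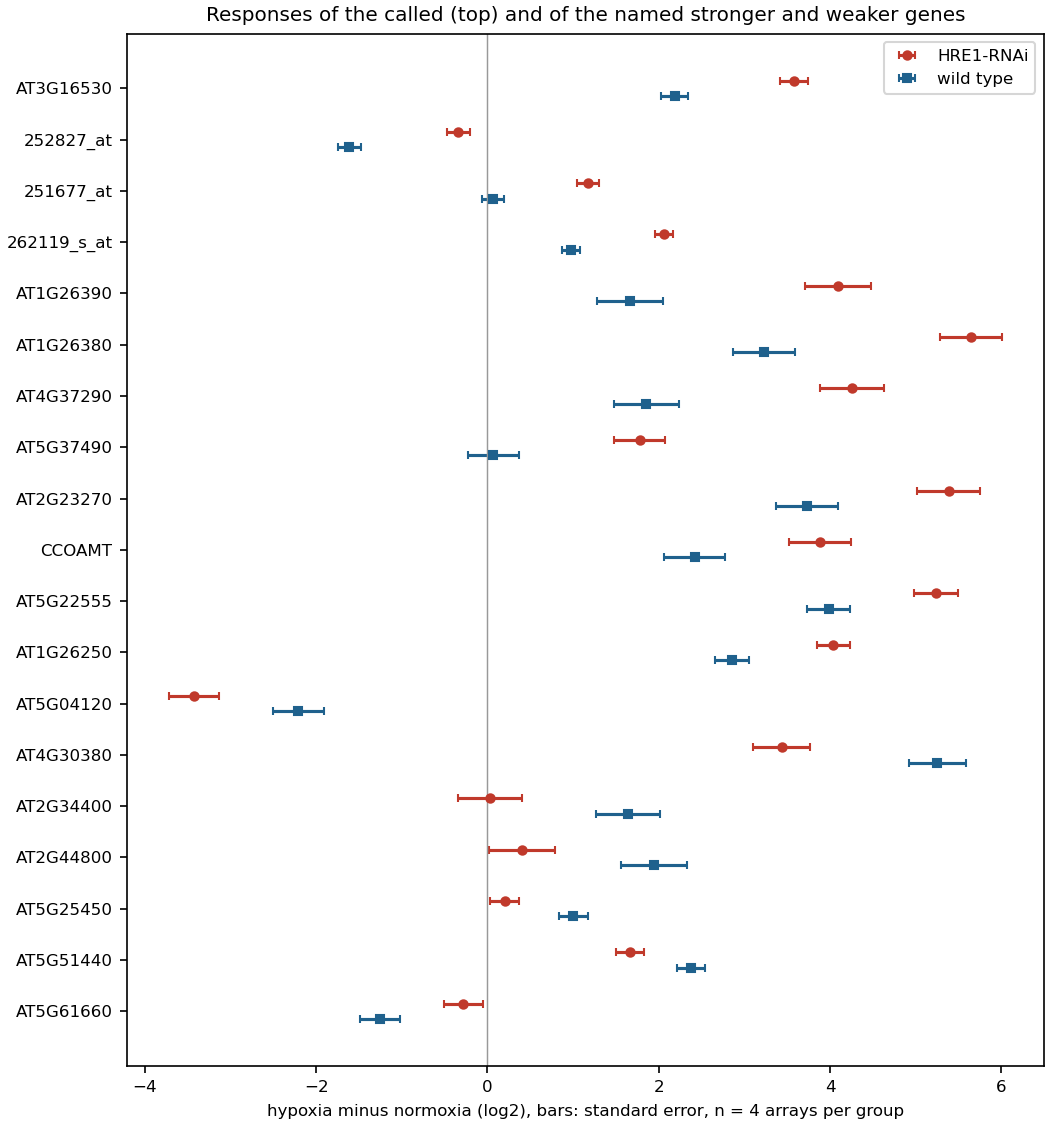
Hypoxia response (log2, bars show the standard error, n = 4 arrays per group) in HRE1-RNAi (circles) and wild type (squares) for the 4 called probe sets at the top, then the named stronger and the named weaker responses. AT1G26380 reaches 5.65 in HRE1-RNAi and 3.23 in wild type, and AT4G30380 reaches 3.44 in HRE1-RNAi and 5.25 in wild type.

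A difference of responses can come from the hypoxia arrays, the normoxia arrays or both, and for most of these genes it had a part in each. In all 28 stronger responses the line difference in normoxia ran opposite to the response, so a gene that rises in hypoxia was lower in HRE1-RNAi under normoxia. In 27 of the 28 the line difference in hypoxia had the sign of the response, the exception being AT4G22212, and in 11 the normoxia part was the larger one. Choosing genes by the difference favours this pattern. AT1G26390 sat mostly in hypoxia, with HRE1-RNAi minus wild type at 1.98 in hypoxia and -0.45 in normoxia. AT5G22555 sat mostly in normoxia, with 0.22 in hypoxia and -1.03 in normoxia. CYP71B6, a cytochrome P450 gene, was nearly all hypoxia, with 0.55 in hypoxia and -0.02 in normoxia, and its HRE1-RNAi values of 3104 to 4537 in hypoxia did not overlap the wild type values of 2204 to 2869. In all 6 weaker responses the normoxia line difference had the sign of the response and the hypoxia line difference the opposite one.

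**Figure D4:**
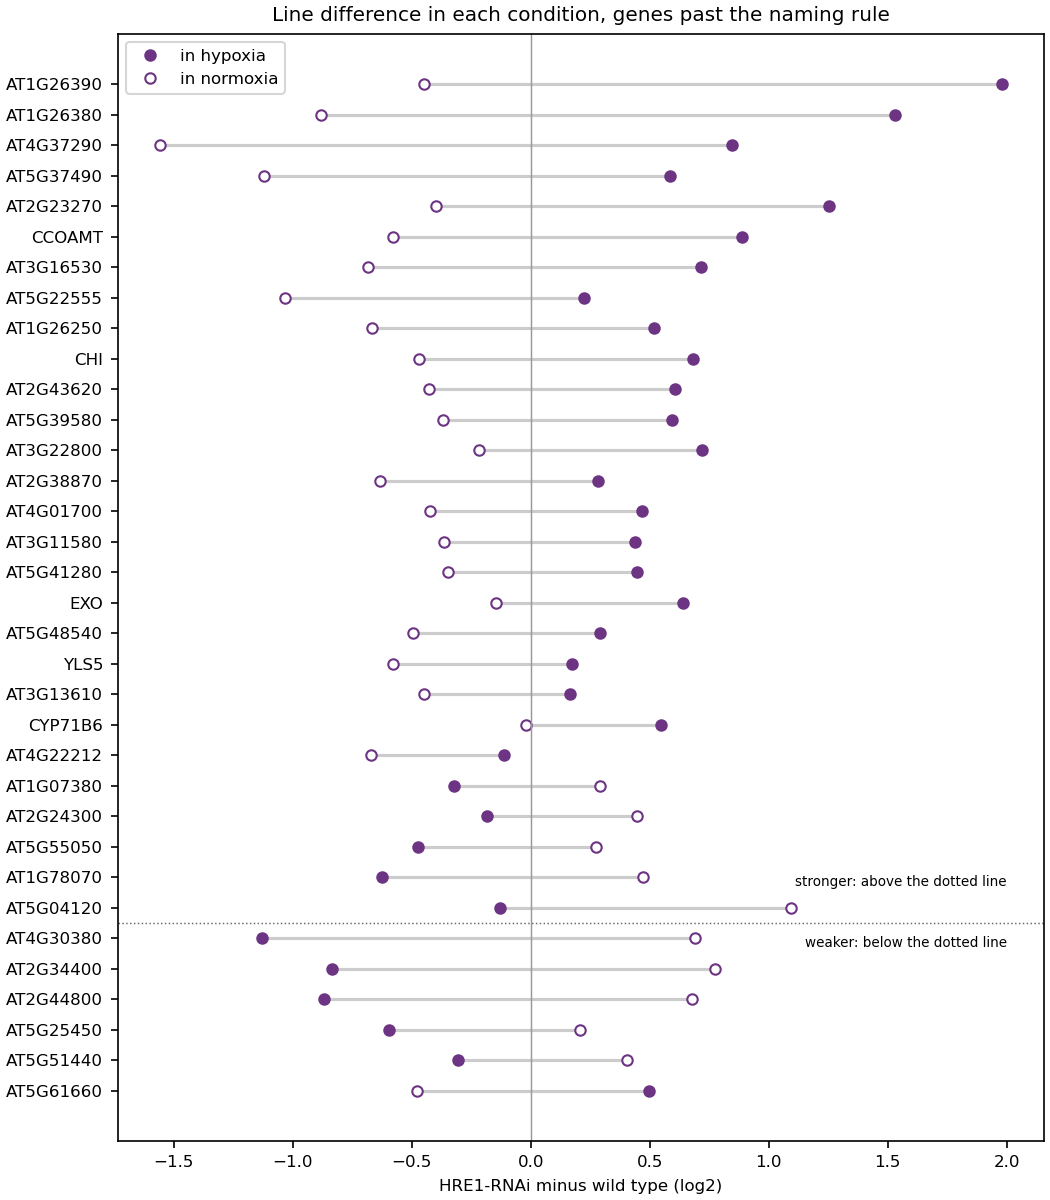
HRE1-RNAi minus wild type (log2 difference of group means) in hypoxia (filled) and in normoxia (open) for the 28 stronger and 6 weaker responses. AT4G37290 reaches -1.56 in normoxia and AT1G26390 reaches 1.98 in hypoxia, the ends of the plotted range.

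Probe sets whose own responses were called in both lines but in opposite directions numbered 4, out of 4135 calls in HRE1-RNAi (18.2%) and 4040 in wild type (17.8%). Probe set 249490_s_at read 373, 333, 364 and 546 in HRE1-RNAi hypoxia, against 211, 299, 202 and 197 in HRE1-RNAi normoxia. Wild type read 147, 139, 156 and 122 in hypoxia, against 172, 293, 207 and 247 in normoxia. It rose by 0.78 log2 in HRE1-RNAi and fell by 0.63 in wild type, and in hypoxia HRE1-RNAi minus wild type was 1.40 (adjusted p = 0.0020), another of the 5 calls there. The difference of 1.41 ± 0.26 had an adjusted p of 0.11, and was called without HRE1-RNAi normoxia array 2 (1.54, adjusted p = 0.048, up to 0.37 over single arrays left out). Probe set 252870_at averaged 2167 ± 293 in HRE1-RNAi hypoxia and 1458 ± 312 in HRE1-RNAi normoxia, and in wild type 1457 ± 355 in hypoxia and 2198 ± 376 in normoxia. The lines did not overlap in either condition, and the difference was 1.19 ± 0.25 (adjusted p = 0.23). The other two, AT4G13320 and AT4G10910, had no group mean above 33.2, near the pseudocount.

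Probe set 260451_at was chosen after its values were seen and had the smallest p of all differences below 0. No gene is paired with it in the annotation used here, so which transcript it reads was not determined. It read 2276, 2022, 2068 and 3673 in HRE1-RNAi hypoxia, against 838, 673, 377 and 1472 in HRE1-RNAi normoxia. Wild type read 8445, 6616, 9759.6 and 5869.9 in hypoxia, against 451, 491, 532 and 574 in normoxia. All HRE1-RNAi hypoxia values were below all wild type hypoxia values, and the normoxia groups overlapped. It rose by 1.68 ± 0.29 log2 in HRE1-RNAi and by 3.84 ± 0.29 in wild type, a difference of -2.17 ± 0.41 (adjusted p = 0.15). The difference was called without both arrays 4 (-2.04, adjusted p = 0.0034), with medians set equal (-2.14, adjusted p = 0.025) and with array weights (-2.29, adjusted p = 0.00088). Its limma adjusted p reached 0.29 in another setting. With single arrays left out it was called in 2 of 16 fits, with adjusted p from 0.0030 to 0.39.

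Gene lists were set beside all probe sets tested, of which 49.3% had a difference above 0 with a median of -0.0041. No member of any of the lists was called in the difference. The hypoxia core list had 28 measured members of 55, and 25 of them rose on average over the lines (11% of all probe sets did) while 1 fell. The one that fell was AT5G04120, whose probe set pairing was not checked, and it was also the one member with an unadjusted p below 0.01. The median response was 2.50 log2 in HRE1-RNAi and 2.73 in wild type. Of the 28, 7 had a difference above 0, with a median of -0.17, and without both arrays 4 the count was 12 and the median -0.03. For 18 of the 28 the 95% interval lay within 2-fold either way. CML38, a calmodulin-like gene of the hypoxia response, rose by 6.12 in HRE1-RNAi and by 5.26 in wild type, with a difference of 0.86 ± 0.32 (unadjusted p = 0.014, adjusted p = 1.0). Without HRE1-RNAi normoxia array 1, which read 25.2 against 75.3 to 95.9 in the other 3, it was 0.54. Its mean was 5573 ± 454 in HRE1-RNAi hypoxia and 69.6 ± 30.8 in HRE1-RNAi normoxia, and in wild type 6143 ± 1462 in hypoxia and 142 ± 18.0 in normoxia. AT5G26200, a mitochondrial carrier gene, rose by 4.04 in HRE1-RNAi and by 3.42 in wild type, with a difference of 0.63 ± 0.28 (adjusted p = 1.0).

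Fermentation and glycolysis had 12 measured members of 38, 4 of which rose on average (11% of all probe sets did). Their differences ran from -0.17 to 0.54 with a median of 0.17, and 9 of 12 intervals lay within 2-fold. PDC2, a pyruvate decarboxylase gene picked for its role in ethanol fermentation, rose by 2.01 in HRE1-RNAi and by 2.19 in wild type, a difference of -0.17 ± 0.35. AT4G17260, a lactate dehydrogenase gene picked for its role, rose by 2.63 in HRE1-RNAi and by 2.69 in wild type, a difference of -0.07 ± 0.17 with a 95% interval of -0.42 to 0.29. The members with the smallest unadjusted p, AT1G76550 and AT1G20950, subunit genes of a pyrophosphate-dependent phosphofructokinase, and the pyruvate kinase gene AT4G26390, had differences of 0.32, 0.34 and 0.54. All 4 group means of AT4G26390, which sets the top of the range, were below the pseudocount of 16. None of these 3 passed an unadjusted p of 0.05.

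Of the 8 heat shock genes measured, from 23 listed, 7 rose on average (11% of all probe sets did). A difference above 0 was found in 1 of the 8, with a median of -0.48. Their median response was 1.76 in HRE1-RNAi and 2.27 in wild type. AT5G51440 was the one member with an unadjusted p below 0.05, and 1 of the 8 intervals lay within 2-fold. Without both arrays 4 the count above 0 was 2, the median -0.49, and no member reached an unadjusted p of 0.01. AT5G48570, a peptidyl-prolyl isomerase gene, had values of 304, 377, 240.0 and 894 in HRE1-RNAi hypoxia, and its difference was -0.55 ± 0.51. It was -0.93 without HRE1-RNAi hypoxia array 4, -0.24 without HRE1-RNAi normoxia array 4 and -0.62 without both. AT2G20560, a DnaJ-type chaperone gene, had -0.44 ± 0.28.

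Among the 11 measured genes of 25 in the defence and pattern-triggered list, 8 rose on average and none fell (11% and 17.2% of all probe sets). The difference was above 0 in 11 of 11, with a median of 0.49, and in 11 of 11 with a median of 0.43 without both arrays 4. Dropping the dimmest 40% of probe sets left 6 members with a median of 0.95. With a pseudocount of 64 the difference was above 0 in 10 of 11. Of the 11, 8 had a group mean of at least 100. The 11 include close paralogues such as AT1G26380 and AT1G26390, and signals shared between such genes were not examined. The 3 with an unadjusted p below 0.01 were AT1G26390, AT1G26380 and AT5G22555, and none of the 11 intervals lay within 2-fold. The list was drawn up with earlier results of these data known, so this is no independent evidence of a direction. Of 4 measured defence transcription factors, from 21 listed, all 4 rose on average (11% of all probe sets did). The difference was above 0 in 2 of the 4, with a median of 0.31, or 0.16 without both arrays 4. STZ, a zinc finger repressor of stress responses, rose by 3.65 in HRE1-RNAi and by 2.66 in wild type, with a difference of 0.99 ± 0.36 (unadjusted p = 0.012, adjusted p = 1.0), or 0.70 without both arrays 4. WRKY53 had a difference of 0.62 ± 0.39, or 0.37 without both arrays 4. WRKY6 had -0.15 ± 0.22 and WRKY22 had -0.0029 ± 0.32.

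Class III peroxidases, secreted enzymes of cell wall and redox chemistry, were the best covered family, with 55 measured of 73. On average 15 rose and 18 fell (11% and 17.2% of all probe sets). The difference was above 0 in 38 (69.1%), with a median of 0.24, and in 36 with a median of 0.19 without both arrays 4. An unadjusted p below 0.01 was reached by 2 and below 0.05 by 9 (0.725% and 3.39% of all probe sets). Of the 55, 41 had a group mean of at least 100. AT5G39580 averaged 3638 ± 492 in HRE1-RNAi hypoxia and 106 ± 17.3 in HRE1-RNAi normoxia, and in wild type 2516 ± 925 in hypoxia and 142 ± 19.7 in normoxia, with a difference of 0.96 ± 0.28 (adjusted p = 0.85), or 0.88 without both arrays 4. AT5G06730 averaged 289 ± 78.5 in HRE1-RNAi hypoxia and 154 ± 42.6 in HRE1-RNAi normoxia, and in wild type 173 ± 19.3 in hypoxia and 197 ± 29.1 in normoxia. It rose by 0.85 in HRE1-RNAi and had a response of -0.16 in wild type, and the difference was 1.01 ± 0.28, or 0.73 without both arrays 4. AT5G19890 rose by 1.99 in HRE1-RNAi and by 1.19 in wild type, a difference of 0.79 ± 0.29. Peroxidase genes form a family of similar sequences, so signals shared between its members cannot be told apart here.

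The 4 measured root hair genes of 16 all fell on average (17.2% of all probe sets did). Of the 4, 3 had a difference above 0, with a median of 0.53. XTH26, a cell wall enzyme gene, averaged 57.0 ± 18.7 in HRE1-RNAi hypoxia and 260.5 ± 59.5 in HRE1-RNAi normoxia, and in wild type 28.4 ± 26.5 in hypoxia and 234 ± 42.9 in normoxia. The difference was 0.75 ± 0.46, while EXPA18, an expansin gene, had 0.50 ± 0.31 and the peroxidase gene AT3G49960 had 0.55 ± 0.48. EXPA7, another expansin gene, went the other way with -0.32 ± 0.34. None reached an unadjusted p of 0.05. Of 5 iron and coumarin genes, AT3G13610, which encodes an enzyme of scopoletin synthesis, rose by 2.91 in HRE1-RNAi and by 2.29 in wild type, a difference of 0.61 ± 0.19 (unadjusted p = 0.0046, adjusted p = 1.0). AT1G28680 and AT3G12900, further genes of coumarin synthesis, had 0.20 ± 0.20 and -0.20 ± 0.46. For AT3G12900, 3 of the 4 group means were below the pseudocount of 16.

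For the remaining lists, the 26 genes picked by a symbol of CYP and a digit had a median of 0.01 with 14 above 0. They include the cyclophilin genes CYP59 and CYP71 beside cytochrome P450 genes, so these are not values of the P450 family alone. Among the 26 were CYP71B6 (0.57 ± 0.18), CYP71B38 (1.40 ± 0.45) and CYP718 (-1.04 ± 0.38). CYP71B38 was dim, with no group mean above 45.3. The 6 WRKY genes had a median of 0.04 with 3 above 0, WRKY20 being at -0.18 ± 0.20. Of the 2 ethylene genes measured, RTE1 had 0.39 ± 0.20 and EIN3 had 0.03 ± 0.18. The 4 mitochondrial dysfunction genes had a median of 0.25 with 3 above 0, among them AT2G41730 (0.38 ± 0.45) and NDB4 (0.39 ± 0.43), whose 4 group means were all below the pseudocount, and AT2G04050 had -0.48 ± 0.52. MCCA, the 1 sugar starvation gene measured, had -0.22 ± 0.29. The shoot markers LHCB4.1 and RCA had 0.12 ± 0.18 and -0.04 ± 0.24, which is a median of 0.04 over that list. Of the 5 root markers, 4 had a difference above 0, with a median of 0.50, and none reached an unadjusted p of 0.05. The 4 root hair genes are among these 5, and the fifth, AT5G17820, had 0.32 ± 0.23. No jasmonate gene of the 10 listed was measured.

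**Figure D5:**
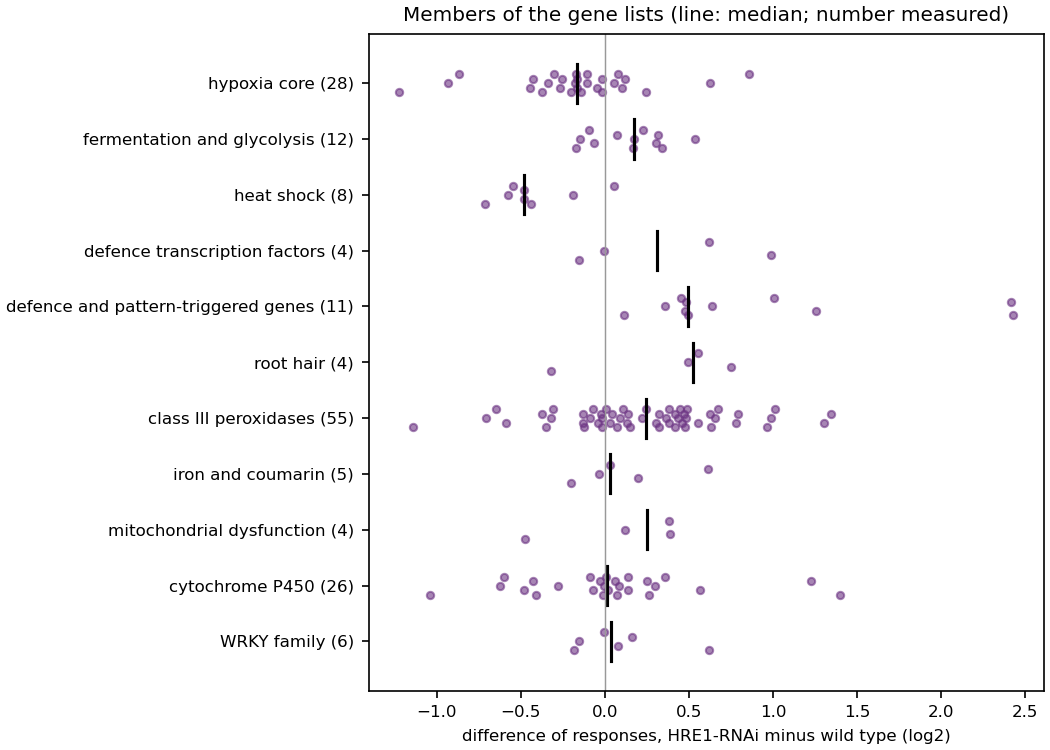
Difference of responses (log2, HRE1-RNAi minus wild type) of each measured member of the lists with at least 4 members, with 1 point per gene and a line at the median. The median is -0.48 in the heat shock list, -0.17 in the hypoxia core and 0.49 in the defence and pattern-triggered list.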

How the data were processed

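The authors deposited 1 intensity per probe set and array on a linear scale, made with MAS5 per the submitters' processing notes (no version given), and the mean without the lowest and highest 2% was close to 500 in every array. After leaving out 64 of 22810 probe sets as controls, log2(intensity + 16) was fitted with limma 3.58.1 in R 4.3.3, as 1 mean per group over 16 arrays, with trend and robust moderation and 12 residual degrees of freedom. The pseudocount understates changes of dim probe sets. Tests were two-sided, adjusted by Benjamini-Hochberg over all 22746, and called at an adjusted p below 0.05. The number of arrays limits the precision, and the p-values measure the spread between arrays labelled biological replicates. The average response, over both lines, gave the direction against which a response is stronger or weaker. No 2 arrays held identical values.

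Probe sets were named from the platform annotation (13513 with 1 gene, 503 with several, 8730 with none), with symbols updated from TAIR10.1 for 13436. Named are every called probe set, up to 10 stronger and 10 weaker responses by the rule in the text with the largest difference, up to 3 members per list by smallest p, and probe sets called in opposite directions. Lists take each gene's probe set with the highest mean. Members, lists and tests were chosen with earlier results of these data known. Promoter sequences were not used here, so the planned motif search was not run. Alternatives tried were a pseudocount of 1 or 64, medians set equal, quantile normalization, a filter on the dimmest 40%, replicate blocks, array weights, plain moderation (no trend, not robust), other thresholds and arrays left out. The fit was tested on simulated data.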

Additional observations from a re-analysis of the deposited data

Results flagged for a closer look

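The 4 called differences of responses, which test the hypoxia effect of HRE1-RNAi against that of wild type, were 1.40 log2 for AT3G16530, 1.27 for 252827_at, 1.11 for 251677_at and 1.09 for 262119_s_at.

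In 13 of the 228 groups of 4 arrays checked for the 57 named probe sets (5.70%), 1 array stood apart from the other 3, and chance gives about 1 in 20. Of these, 4 were HRE1-RNAi arrays numbered 4. In HRE1-RNAi hypoxia, array 4 was low for AT4G26390 (7.7, others 16.7 to 17.9) and EIN3 (1566.3, others 2036.9 to 2080.6), and high for AT5G06730 (405.6, others 237.4 to 258.7). In HRE1-RNAi normoxia, array 4 was high for AT5G25450 (606.2, others 321.3 to 346.2), array 3 was high for AT4G26390 (13.7, others 6 to 6.8) and NDB4 (20.2, others 1.9 to 3.9), and array 2 was high for 249490_s_at (298.8, others 197.3 to 210.5). In wild type hypoxia, array 4 was low for AT5G61660 (102.8, others 218.2 to 233.9), and array 2 was high for AT1G28680 (1016.9, others 727.2 to 745.3) and NDB4 (5.6, others 2.9 to 3.1). In wild type normoxia, array 1 was high for the called gene AT3G16530 (517.7, others 405.4 to 422.7) and low for WRKY20 (313.7, others 362.7 to 372.1), and array 3 was low for AT5G26200 (45.7, others 100.6 to 113).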

How the results depend on the processing

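The 4 called differences became 7 (5 above 0, 2 below) with array weights, 1 at an adjusted p below 0.01, and 1 to 6 when each array was left out. The count was at most 2 without any single wild type normoxia array, HRE1-RNAi normoxia array 1, wild type hypoxia array 2, or HRE1-RNAi hypoxia arrays 2 or 3. With neither trend nor robust moderation there were 5 calls, and 1 of the 4 stayed among them. The adjusted p was then 0.064 for 251677_at, 0.053 for 252827_at and 0.11 for AT3G16530. The other alternatives gave 4 to 6 calls. Stronger responses by the naming rule, 28, numbered 20 to 42 over all settings. Weaker ones, 6, numbered 12 with array weights, 10 without both HRE1-RNAi arrays numbered 4, and 3 to 15 when each array was left out. Average response calls numbered 5820 to 7673, beside 6399. Counts at an unadjusted p below 0.01, 105 above 0 and 60 below, were 175 and 120 with array weights, 129 and 109 without HRE1-RNAi hypoxia array 4, and 59 and 28 without the dimmest 40%. At an unadjusted p below 0.05, 770 became 1293, 1198 and 374 in these settings. The labels do not say that replicate numbers mark pairs, and r of array deviations was over 0.1 in 6 of 24 pairs with the same number, from -0.088 to 0.42, so they were not treated as pairs. The 8 pairs of hypoxia and normoxia arrays of 1 line were all above 0 (0.013 to 0.42), and 7 of 16 arrays correlated best with their own number. With the replicate number as a fixed block the difference gave 5 calls, the 4 and 267565_at (2.69), and 13 weaker responses; as a random block it gave 4 calls. Over single arrays left out, the sign turned for EIN3 (-0.066 to 0.13), AT3G12900 (-0.42 to 0.083) and RCA (-0.19 to 0.055), none called. The cause of these shifts was not tested. Dim probe sets limit the precision: 59 of 165 at an unadjusted p below 0.01 had a group mean under the pseudocount.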
